A study of Homo sapiens with 9 samples.

Results

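The 10 genes described here encode the transcription factor NRF2 (gene NFE2L2), its regulators and partners KEAP1, MAFG and SQSTM1, and 6 of its classical targets, GCLC, GCLM, TXNRD1, SRXN1, NQO1 and HMOX1. They were chosen by name as the NRF2 response to oxidative stress, and their peaks are those for which the deposited lists name one of them as the nearest gene. By that rule 66 of the 34575 ARID peaks belonged to the 10 genes, out of 12428 genes named in the 3 ARID lists. The cells were HepG2, an established line from human liver cancer. Their chromatin was digested with micrococcal nuclease after fixation. It was then immunoprecipitated with antibodies to the SWI/SNF subunits ARID1A, ARID1B, ARID2 or SNF5 for sequencing (ChIP-seq). The cells of all 9 libraries carried no treatment in the labels, so the values are those of unstimulated cells of 1 line and not of an oxidative stress response. Each antibody had 2 replicates and there was 1 input library. Each subunit was represented by 1 list of peaks called on the merged replicates, with no read counts, so depth is unknown, no replicate error exists and no test between subunits could be made. Subunit, antibody and library depth cannot be told apart, and a gene without a peak in a list is a gene without a called peak, not one shown to be unbound.

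NRF2 is held at a low level in resting cells because KEAP1 presents it to a ubiquitin ligase, and electrophiles or oxidants that modify KEAP1 let NRF2 accumulate. It then pairs with a small MAF protein such as MAFG and binds antioxidant response elements (AREs) near genes for glutathione synthesis, thioredoxin recycling, quinone reduction and heme breakdown. SWI/SNF complexes slide or evict nucleosomes. ARID1A or ARID1B defines the BAF form and ARID2 the PBAF form, SNF5 is a core subunit of both, and the SWI/SNF ATPase BRG1 is known to act with NRF2 at HMOX1.

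The sequences shown here are stretches of the peaks of these genes that hold the core letters of the ARE. The core was searched as TGACNNNGC on both strands of hg19. It was found 20 times inside the ARID peaks assigned to 9 of the 10 genes. No assigned ARID peak of SRXN1 held it, though the SNF5 peak over the SRXN1 start did. The first 7 sequences each hold at least 1 match that also contains TGANTCA, the letters of the AP-1 site bound by FOS and JUN proteins, and the last 3 show promoter matches without it. Capitals mark each match, and every sequence reads 5′ to 3′ on the strand named.
HMOX1, chr22:35767992-35768127, minus strand: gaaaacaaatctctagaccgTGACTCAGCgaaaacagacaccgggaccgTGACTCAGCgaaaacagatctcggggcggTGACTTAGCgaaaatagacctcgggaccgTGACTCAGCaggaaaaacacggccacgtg
HMOX1, chr22:35773065-35773177, minus strand: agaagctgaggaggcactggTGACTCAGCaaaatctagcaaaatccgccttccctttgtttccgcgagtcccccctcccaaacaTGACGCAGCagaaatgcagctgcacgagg
NQO1, chr16:69760890-69760938, minus strand: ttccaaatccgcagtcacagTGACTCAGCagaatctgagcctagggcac
GCLC, chr6:53413027-53413075, plus strand: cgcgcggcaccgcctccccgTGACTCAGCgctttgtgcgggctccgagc
SQSTM1, chr5:179246565-179246613, minus strand: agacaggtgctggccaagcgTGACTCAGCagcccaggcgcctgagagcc
SQSTM1, chr5:179247533-179247581, minus strand: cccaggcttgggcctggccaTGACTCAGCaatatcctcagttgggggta
MAFG, chr17:79884823-79884871, plus strand: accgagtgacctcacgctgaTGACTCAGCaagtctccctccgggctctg
GCLM, chr1:94375002-94375030, plus strand: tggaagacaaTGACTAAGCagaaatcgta
TXNRD1, chr12:104680698-104680726, minus strand: agagtcagaaTGACAAAGCagaaatccac
KEAP1, chr19:10613460-10613488, plus strand: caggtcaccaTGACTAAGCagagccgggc

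HMOX1, whose known enhancers lie well upstream of the gene, held 6 of the 20 matches, all of them in its distal class peaks. In the first sequence 4 matches repeated at a spacing of 29 bp inside an ARID1A peak, and 3 of these 4 also held the AP-1 letters. In the second, 2 matches stood 64 bp apart inside an ARID2 peak. Over the 10 genes 9 of the 20 matches contained the AP-1 letters. Counted over joined peak regions, which add peaks assigned to other genes, it was 9 of 22 (40.9%), against 215 of 3548 (6.06%) in all ARID peak regions. The HMOX1 repeats resemble each other and are not independent, and without HMOX1 the count was 5 of 16 (31.2%). A match is a run of letters in a peak and not a measured binding site, since NRF2 itself was not mapped. Of these 22 matches, 14 lay inside a peak of SNF5 (63.6%), beside 66.5% of all 3548. Peaks of all 3 ARIDs held 2 of the 22 (9.09%), 1 at NQO1 and 1 at GCLC, beside 4.26%.

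Peaks of all 3 ARID subunits were assigned to 5 of the 10 genes, namely SQSTM1, GCLC, TXNRD1, SRXN1 and NQO1. Over 20149 protein-coding genes the share with all 3 was 9.41%. ARID1A had 23 peaks at 9 of the 10 genes, in a list that named 31.1% of coding genes. ARID1B had 15 peaks at 6 genes, against 16.0% of coding genes, and ARID2 had 28 peaks at 8 genes, against 27.7%. Every one of the 10 had a peak of at least 1 ARID, where 40.8% of coding genes did. Counted by position, within 5000 bp of the gene body whatever the assigned gene, ARID1A had a peak at 10 of the 10 genes (44.0% of coding genes), ARID1B at 7 (23.8%) and ARID2 at 9 (39.9%). All 3 were then present at 7 genes, with NFE2L2 and MAFG added, against 16.7% of coding genes. These backgrounds include genes of every length and genes that are silent in HepG2, and RNA was not analysed here, so they do not say how the 10 compare with other expressed genes.

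By nearest gene, GCLC and NQO1 carried the most peaks, 12 each, a number reached by 0.739% of coding genes. SQSTM1 had 9 peaks (1.69% of coding genes had as many) and TXNRD1 had 8 (2.28%). NFE2L2 and HMOX1 had 7 each (3.1%), SRXN1 had 4 (10.5%), KEAP1 had 3 (16.9%), and MAFG and GCLM had 2 each (27.0%). The number of peaks therefore differed widely within the group, and GCLM, the partner subunit of GCLC, was at the low end. The order depended on the assignment. Within 5000 bp of the body, NFE2L2 had 7 ARID1A, 3 ARID1B and 9 ARID2 peaks. By the same count NQO1 had 3, 5 and 6, GCLC 3, 3 and 6, SRXN1 3, 8 and 1, and MAFG 4, 1 and 4.

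**Figure D1:**
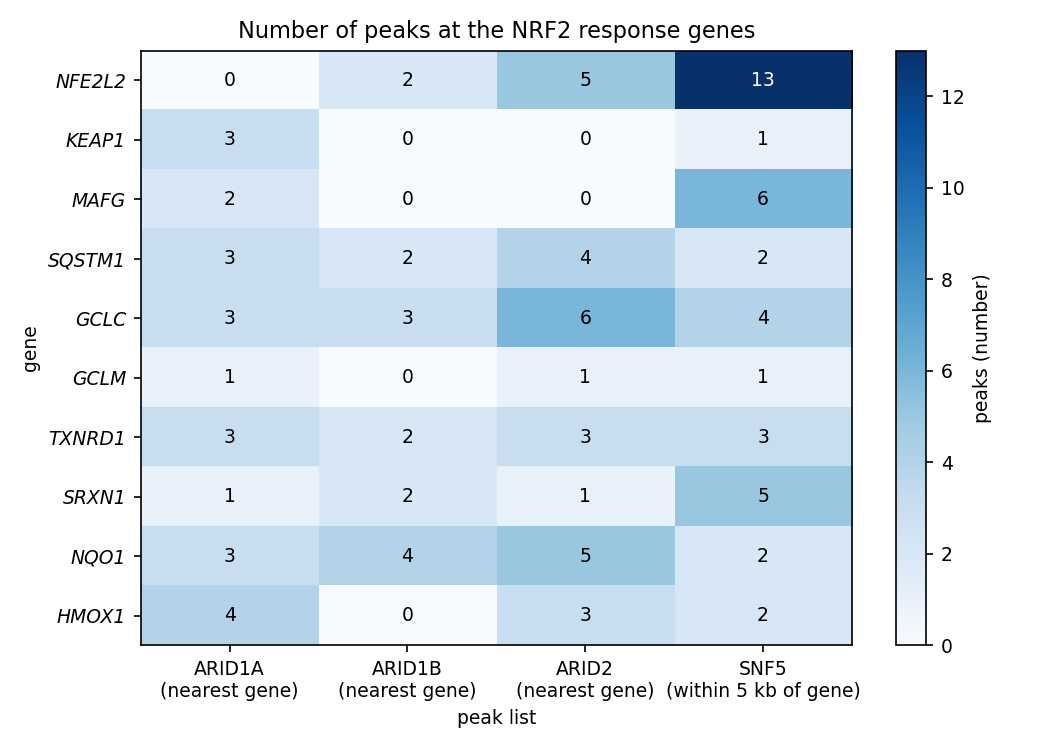
Number of peaks per gene (rows) in each list (columns). ARID peaks are those whose deposited nearest gene is the gene, and SNF5 peaks are those within 5000 bp of its annotated body. The count in each cell shows that 5 genes had peaks of all 3 ARIDs, that NFE2L2 had 0 ARID1A peaks by assignment and that HMOX1, KEAP1, MAFG and GCLM had 0 ARID1B peaks.

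Among the regulators, NFE2L2 itself had 0 ARID1A, 2 ARID1B and 5 ARID2 peaks by nearest gene. The absence of ARID1A came from the assignment. An ARID1A peak 2003 bp wide (chr2:178127961-178129963) covered the NFE2L2 start and was given to AC079305.10, a neighbouring gene model. It overlapped both ARID1B peaks, centred at 1231 and -288 bp from the start, and 2 ARID2 peaks, centred at 933 and -367 bp. Positions are those of the peak's midpoint relative to the annotated start, negative upstream. All 3 subunits were thus called over the NFE2L2 promoter, in a joint region of 2250 bp (chr2:178127961-178130210).

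The SNF5 peak over the NFE2L2 start (chr2:178129203-178131617) had a score of 41, which 1.37% of the 20718 SNF5 peaks reached. The next one downstream, with a score of 34 (4.65% at or above), was overlapped by all 3 ARIDs and held the only match to the ARE core in the peaks assigned to NFE2L2, at 1110 bp. The whole joint region held 3 matches, 2 of them only in the ARID1A peak given to AC079305.10. The remaining ARID2 peaks were 243 and 74 bp wide in the intron, at 3374 and 2959 bp, and 98 bp wide at -128001 bp, where an upstream alternative start is annotated. That last peak lay inside an ARID1A peak of the promoter class that was assigned to the neighbouring gene AGPS. Over the body and 5000 bp to either side, 7 ARID1A, 1 ARID1B and 4 ARID2 peaks were assigned to other genes, namely HNRNPA3, DNAJC19P5, MIR3128, AC079305.10 and AGPS.

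KEAP1, the adaptor that directs NRF2 to degradation, had ARID1A peaks only. They measured 221, 220 and 199 bp and were centred at 1071, 526 and -92 bp, all in the promoter class. No ARID1B or ARID2 peak lay within 5000 bp of the gene, under any assignment. The peak at the start was overlapped by an SNF5 peak of score 27 (chr19:10613744-10614634), and the middle peak held 2 matches to the ARE core, at 558 and 535 bp, outside SNF5.

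MAFG, a small MAF partner of NRF2, likewise had only ARID1A peaks by nearest gene, 881 bp wide at 842 bp and 187 bp wide at 2376 bp. The wider peak held 2 matches, 1 of them with the AP-1 letters. The SNF5 peak of score 39 there (1.96% of the list at or above) ended at position 79884823, short of both matches. On the other side of the start, peaks of ARID1A (1126 bp) and ARID2 (605 and 123 bp) were assigned to the neighbouring gene MAFG-AS1. At the 3′ end, peaks of all 3 ARIDs were assigned to SIRT7. Counted within 5000 bp of the body, MAFG had 4 ARID1A, 1 ARID1B and 4 ARID2 peaks.

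SQSTM1 encodes p62, which sequesters KEAP1. It had 3 ARID1A, 2 ARID1B and 4 ARID2 peaks. Its widest peak was an ARID1A peak of 1821 bp over the start (chr5:179246988-179248808), which contained an ARID2 peak of 532 bp and the match at -348 bp. An ARID1A peak of 665 bp and an ARID1B peak of 313 bp overlapped at -1719 and -1381 bp, and the second match, at -1316 bp, lay in the ARID1B peak. Both of these matches had the AP-1 letters and both lay in 1 SNF5 peak of 2284 bp with a score of 25. In the intron, an ARID1B peak at 5282 bp, which held the remaining match at 5295 bp without the AP-1 letters, and an ARID2 peak at 5102 bp lay next to each other without overlapping, and no SNF5 peak met either. A further pair of ARID1A and ARID2 peaks overlapped at -12652 and -12496 bp. The ARID1A peaks assigned to MGAT4B and C5orf45 lay beyond either end of the gene.

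GCLC and GCLM encode the catalytic and modifier subunits of glutamate-cysteine ligase, which carries out the first step of glutathione synthesis. GCLC had 3 ARID1A, 3 ARID1B and 6 ARID2 peaks. Its most shared site was not the promoter but a region upstream of the canonical start (chr6:53412182-53413330). There an ARID1A peak of 637 bp at -2919 bp, an ARID1B peak of 253 bp at -3015 bp and an ARID2 peak of 1149 bp at -2857 bp overlapped. The deposited class is intron, because a longer GCLC transcript starts further upstream. The SNF5 peak at this site (chr6:53412462-53413245) had a score of 52, the highest at any of the 10 genes, and 0.299% of the list was at or above it. All 3 matches to the ARE core in the ARID peaks assigned to GCLC lay in it, at -2623, -3107 and -3152 bp. The SNF5 peak at the alternative start further upstream (chr6:53480338-53481891) also held the core, outside the assigned ARID peaks.

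At the canonical GCLC start ARID1A and ARID2 had overlapping peaks and ARID1B had none. The ARID1A peaks were centred at 804 and 56 bp and the ARID2 peaks at 556 and -130 bp, under 1 SNF5 peak of 2195 bp with a score of 33. An ARID2 peak of 178 bp at 2041 bp met no other list. The alternative start showed another combination, with ARID1B peaks at -70744 and -71574 bp, ARID2 peaks at -70610 and -71033 bp and no ARID1A peak assigned. GCLM had 1 ARID1A peak of 182 bp and 1 ARID2 peak of 337 bp, which overlapped at the start, and an SNF5 peak of 737 bp with a score of 20. No ARID1B peak was found within 5000 bp of GCLM. Its single match, at -30 bp, lay in the ARID2 peak.

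TXNRD1 encodes cytosolic thioredoxin reductase, and SRXN1 encodes sulfiredoxin, which repairs overoxidized peroxiredoxins. TXNRD1 had 3 ARID1A, 2 ARID1B and 3 ARID2 peaks. Positions are given from the annotated start under its widest peak, since the canonical start lies far upstream and had no peak assigned near it. ARID1A peaks at -2 and 823 bp overlapped ARID2 peaks at -393, 238 and 899 bp. The ARID1B peak, 66 bp wide at 480 bp, fell between them and overlapped neither. The remaining ARID1A peak, of 135 bp at 4917 bp, stood alone. The other ARID1B peak (52 bp) had a deposited distance of 36137 bp, the largest of the 66. SNF5 met 1 ARID1A and 1 ARID2 peak at the start (score 27), and 2 more SNF5 peaks downstream, both with a score of 16, had no ARID peak.

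SRXN1 had 1 ARID1A, 2 ARID1B and 1 ARID2 peaks, all in the promoter class. The ARID1A peak measured 556 bp and contained an ARID1B peak of 52 bp at -97 bp. The other ARID1B peak, 205 bp at -864 bp, contained the ARID2 peak of 56 bp. An SNF5 peak of 2312 bp with a score of 17, below the list median of 19, covered all 4. Past the 3′ end of SRXN1 the balance was different. There 6 ARID1B peaks and 2 ARID1A peaks were assigned to PS1TP5, with 0 ARID2 peaks, and 4 further SNF5 peaks with scores of 14 to 28 were called.

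NQO1 encodes a quinone reductase that uses NADPH or NADH. It had 3 ARID1A, 4 ARID1B and 5 ARID2 peaks, of which all 12 were overlapped by SNF5. An ARID1A peak of 1126 bp over the start (chr16:69760049-69761174) overlapped an ARID1B peak of 109 bp at 194 bp and an ARID2 peak of 622 bp at -395 bp. A further ARID1B peak of 375 bp in the same place was assigned to CTD-2033A16.3, and with it the match at -451 bp lay in peaks of all 3 ARIDs. An ARID2 peak upstream (115 bp) was also assigned to that gene. A second cluster lay in the gene, where all 3 ARIDs joined in 1 region (chr16:69757462-69758093), with ARID1A at 2498 bp, ARID1B at 2829 bp and ARID2 at 2639 bp. There the ARID1A and ARID1B peaks did not overlap each other, and the ARID2 peak of 60 bp overlapped both. One SNF5 peak of 4398 bp with a score of 24 spanned both clusters, and 0.357% of SNF5 peaks were at least as wide.

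HMOX1 encodes heme oxygenase, which opens heme to release iron, carbon monoxide and biliverdin. It had 4 ARID1A and 3 ARID2 peaks and 0 ARID1B peaks, with no ARID1B peak within 5000 bp under any assignment. The ARID1A peaks were centred at -8903, -8244, -4193 and 24 bp and measured 414, 156, 347 and 167 bp. The ARID2 peaks were centred at -4061, -2311 and -258 bp and measured 332, 203 and 156 bp. Only the pair at -4193 and -4061 bp overlapped, so 1 of 4 ARID1A and 1 of 3 ARID2 peaks were shared. All 7 were overlapped by SNF5.

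The farthest ARID1A peak (chr22:35767979-35768392) held the 4 repeated matches printed above and lay in an SNF5 peak of 1280 bp with a score of 20. The ARID2 peak at -4061 bp (chr22:35772862-35773193) held the other 2 matches. The ARID1A peak that it overlapped ended at position 35773069, before them. A single SNF5 peak of 4759 bp and score 26 ran from that site across the start (chr22:35772724-35777482), and 0.275% of SNF5 peaks were at least as wide. HMOX1 and NQO1 thus both lay under very wide SNF5 peaks of moderate score, while the narrower GCLC upstream peak had the highest score.

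**Figure D2:**
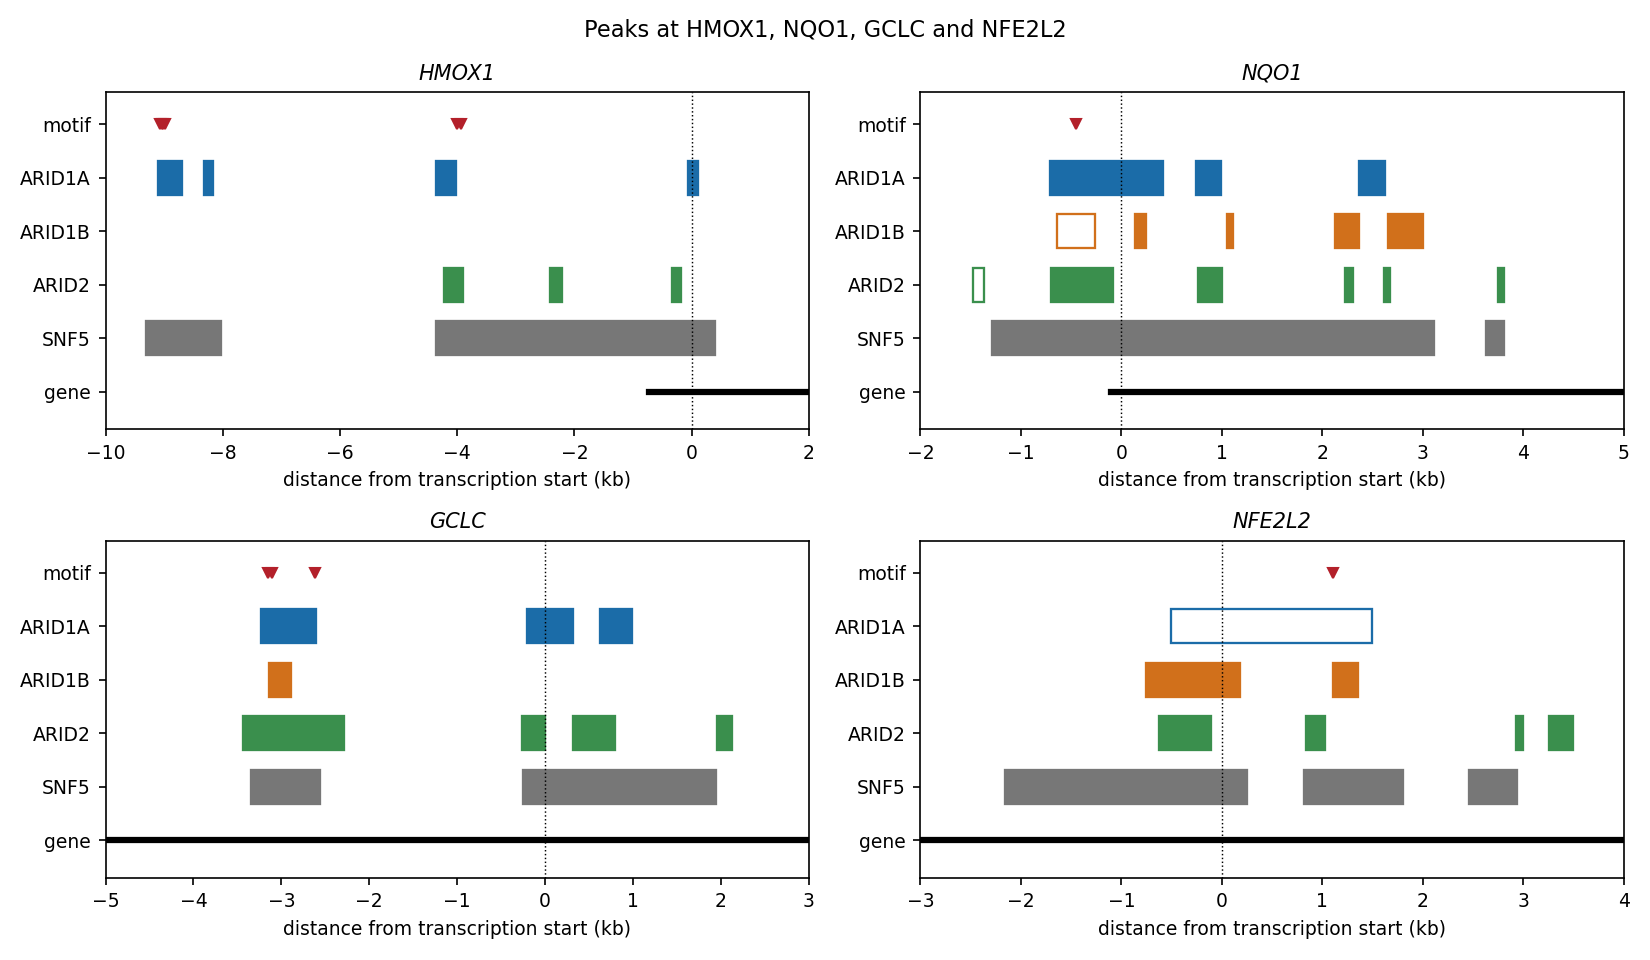
ARID and SNF5 peaks (boxes), matches to the ARE core (triangles) and annotated gene bodies (black lines) at HMOX1, NQO1, GCLC and NFE2L2, by distance from the transcription start in kb, downstream to the right. Filled ARID boxes were assigned to the gene and hollow boxes to another gene, and boxes have a minimum drawn width. Triangles mark only matches in ARID peaks assigned to the gene, so matches in hollow or SNF5 boxes alone are not drawn. All 3 ARIDs met upstream of GCLC, at the NQO1 start and over the NFE2L2 start, where the ARID1A box is hollow, and HMOX1 had no ARID1B box.

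**Figure D3:**
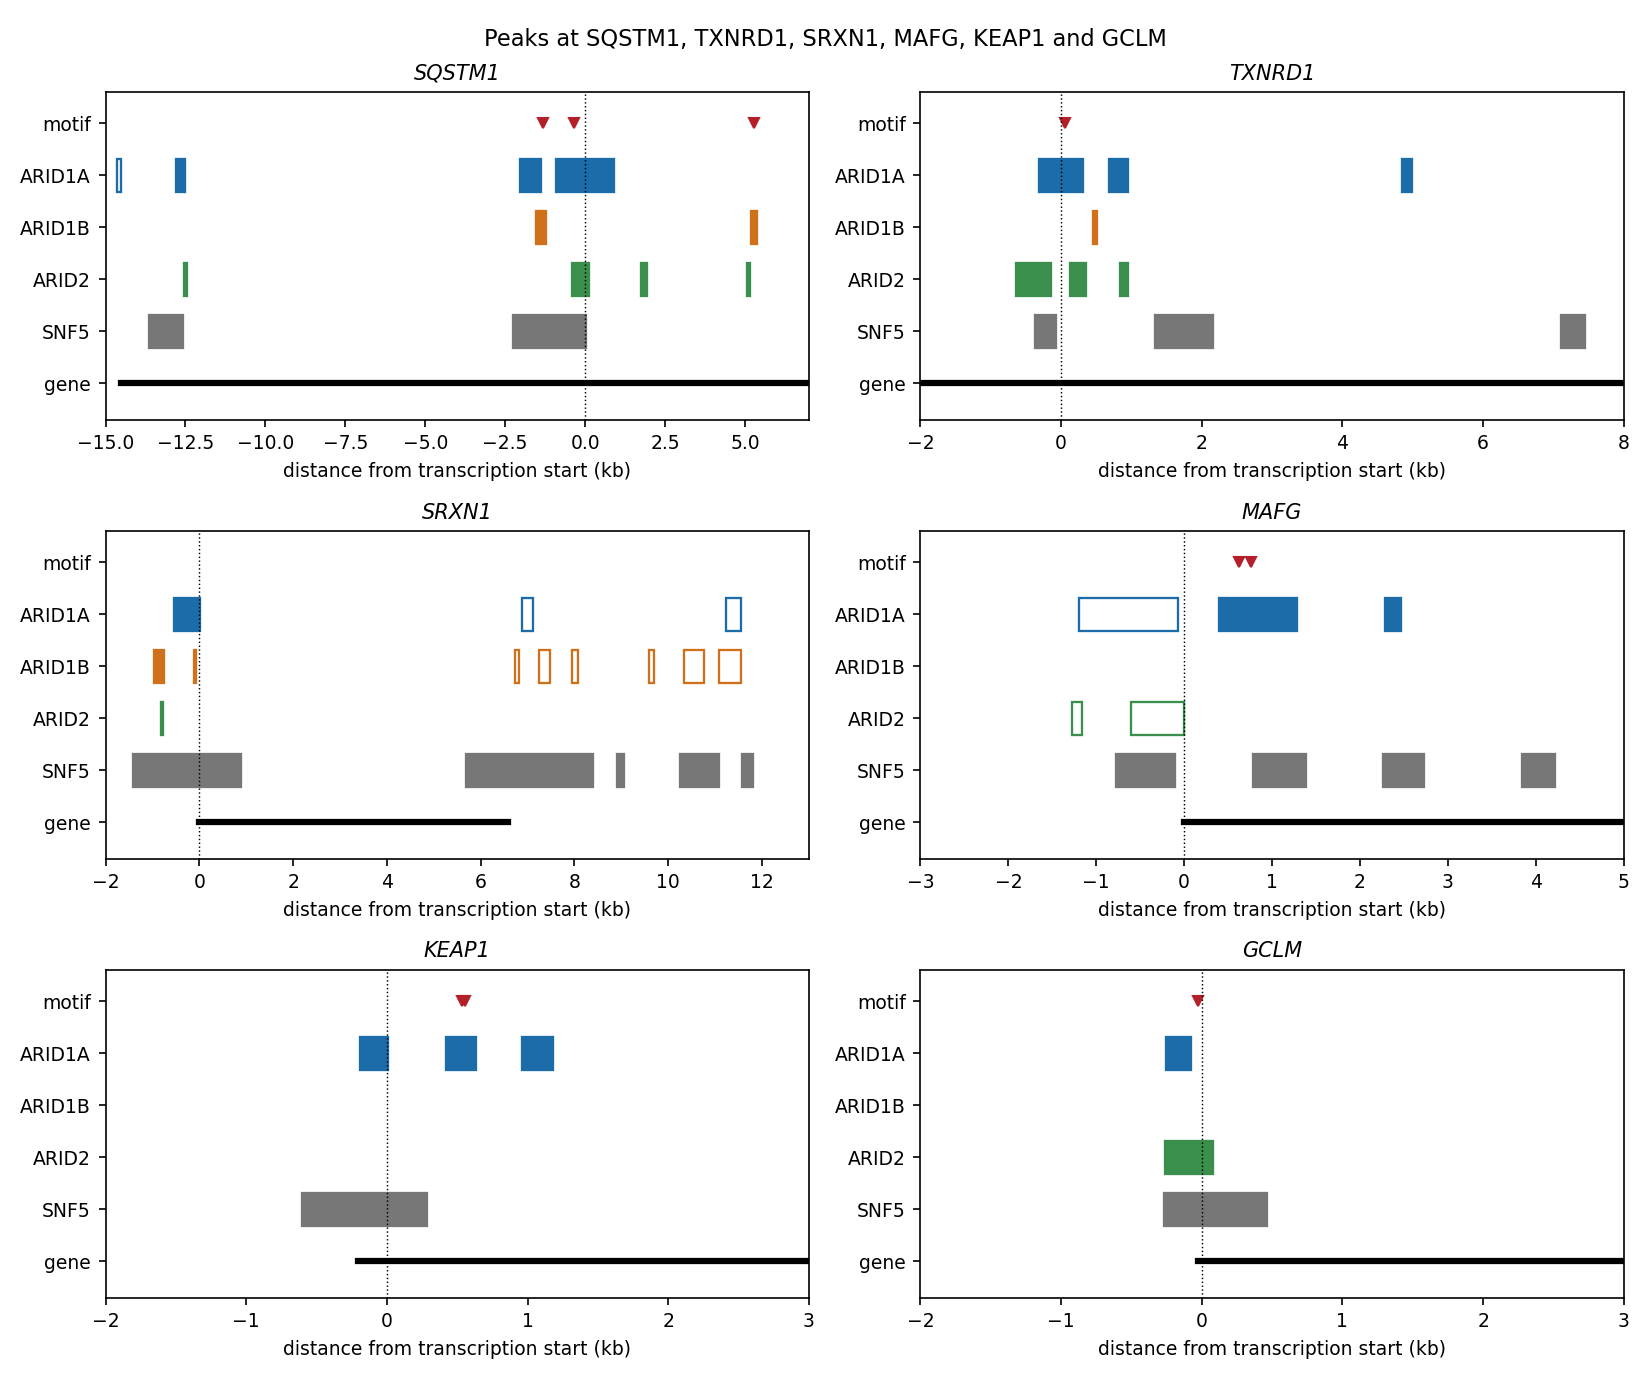
The same plot for SQSTM1, TXNRD1, SRXN1, MAFG, KEAP1 and GCLM, with symbols as for HMOX1. KEAP1 showed ARID1A and SNF5 only, ARID1B was also absent from GCLM, and the 6 hollow ARID1B boxes past SRXN1 were assigned to PS1TP5. The MAFG panel stops short of the 3′ peaks assigned to SIRT7, the only ARID1B peak near MAFG among them, and so shows no ARID1B box.

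By feature class, 17 of 23 ARID1A peaks were in promoters (73.9%, 95% Wilson interval 53.5 to 87.5%), beside 72.6% of the ARID1A list. For ARID1B it was 8 of 15 (53.3%, 30.1 to 75.2%) beside 37.9%, and for ARID2 16 of 28 (57.1%, 39.1 to 73.5%) beside 67.0%. All 3 intervals contained the share of the list. ARID2 instead had 9 of 28 peaks in introns (32.1%, 17.9 to 50.7%) beside 17.5%, just under the interval, at NFE2L2, SQSTM1, GCLC and NQO1. Intervals cover counting error only, and peaks of 1 gene are not independent of each other. The deposited distance to the nearest start had a median of 333 bp for ARID1A (all ARID1A peaks, 235 bp), 691 bp for ARID1B (2636 bp) and 723 bp for ARID2 (423 bp). Beyond 5000 bp there were 2 ARID1A peaks, both at HMOX1, and 1 ARID1B peak, at TXNRD1.

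Peaks that shared at least 1 bp with another ARID made up 14 of 23 for ARID1A (60.9%, 40.8 to 77.8%) beside 47.6% of its list. The count was 10 of 15 for ARID1B (66.7%, 41.7 to 84.8%) beside 40.1%, and 19 of 28 for ARID2 (67.9%, 49.3 to 82.1%) beside 46.9%. By pairs, ARID2 overlapped 12 of 23 ARID1A peaks (52.2%) and ARID1B overlapped 4 (17.4%), where the whole list had 40.4% and 20.9%. In the other direction ARID1A overlapped 16 of 28 ARID2 peaks (57.1%), with 41.7% over the list, and ARID1B overlapped 7 (25.0%), with 18.1%. Of the 15 ARID1B peaks 6 were overlapped by ARID1A (40.0%, with 32.1% over the list) and 6 by ARID2 (40.0%, with 27.2%). Member peaks were wider, with medians of 270, 236 and 199 bp for ARID1A, ARID1B and ARID2 against 218, 164 and 189 bp over the lists, and the part of width in these overlaps was not tested.

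Joined where they overlapped, the peaks formed 41 regions. ARID1A alone held 9, ARID2 alone 9, ARID1B alone 5, ARID1A with ARID2 9, ARID1B with ARID2 3 and ARID1A with ARID1B 2. All 3 ARIDs had a peak in 4 of the joined regions (9.76%), beside 7.55% of the 25247 regions of the whole lists. These were the NFE2L2 promoter, the upstream GCLC site, and both NQO1 clusters. In the NQO1 cluster inside the gene no base was shared by all 3, since the ARID1A and ARID1B peaks did not overlap. The regions grew with the number of subunits, from a median of 178 bp with 1 ARID to 430 bp with 2 and 1137.5 bp with 3, which follows in part from joining peaks.

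**Figure D4:**
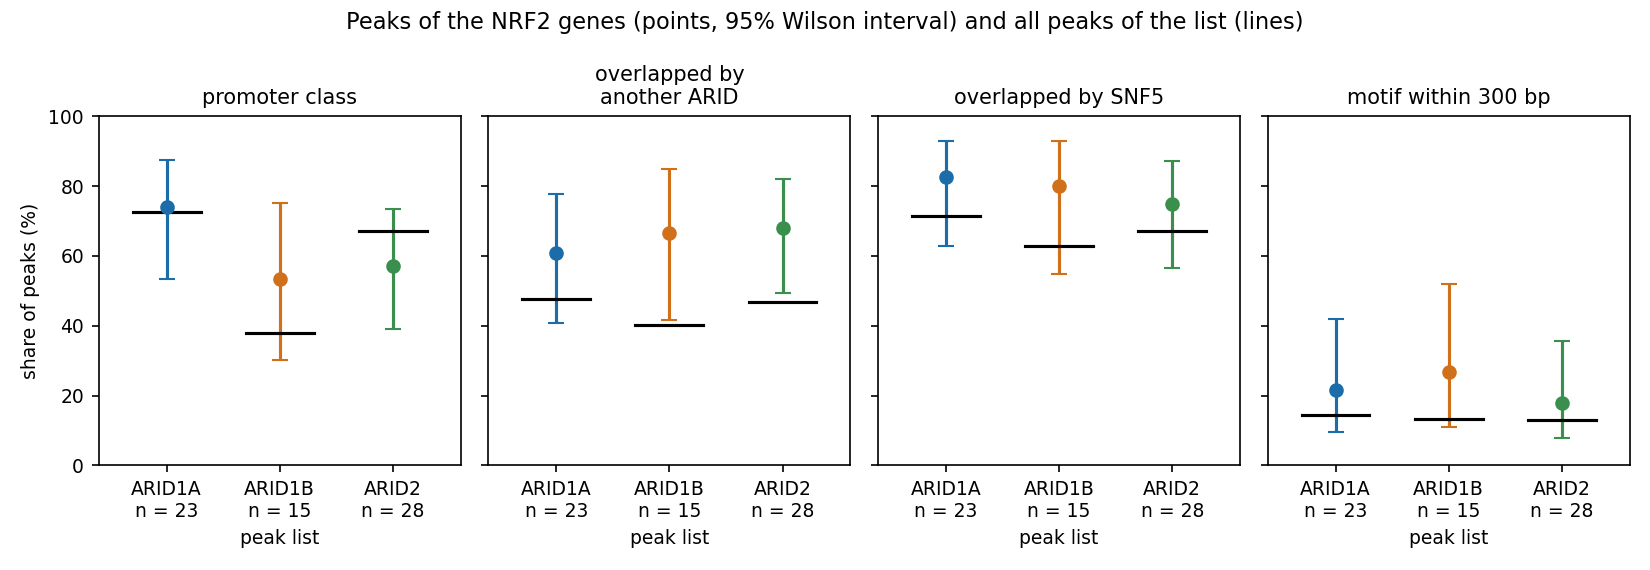
Share of the peaks of the 10 genes (points, with 95% Wilson intervals) in 4 classes for each ARID list, and the same share over all peaks of the list (horizontal lines). The share overlapped by another ARID was 60.9, 66.7 and 67.9% for ARID1A, ARID1B and ARID2, and the interval contained the list's share in all panels except that one, where the lines for ARID1B and ARID2 lie just below the intervals.

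SNF5 overlapped 19 of 23 ARID1A peaks (82.6%, 62.9 to 93.0%) beside 71.3% of the list, 12 of 15 ARID1B peaks (80.0%, 54.8 to 93.0%) beside 62.9%, and 21 of 28 ARID2 peaks (75.0%, 56.6 to 87.3%) beside 67.2%. Each interval contained the share of its list. By role, SNF5 met all 19 peaks of NQO1 and HMOX1 and 13 of 14 at GCLC and GCLM. It met 14 of 21 at the regulators and 6 of 12 at TXNRD1 and SRXN1. Genes within a role differed, with all 4 SRXN1 peaks met but only 1 ARID1A and 1 ARID2 peak of 8 at TXNRD1. Among the regulators it was 1 of 3 at KEAP1 and 2 of 2 at MAFG. Most NQO1 and HMOX1 peaks lay under 1 wide SNF5 peak at each gene (4398 and 4759 bp), so they are not independent. Among peaks shared with another ARID 39 of 43 also had SNF5, beside 89.1% over the 3 lists, and among peaks of a single ARID 13 of 23 did, beside 49.7%. The shared peaks were wider, with a median of 270 bp against 178 bp.

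An SNF5 peak lay within 5000 bp of all 10 genes, where 52.6% of coding genes had one. There were 39 such peaks, of which NFE2L2, with its long annotated body, had 13. An ARID peak overlapped 26 of the 39, beside 50.9% of the whole SNF5 list. The 13 without an ARID peak were at NFE2L2 (5), MAFG (2), TXNRD1 (2), SRXN1 (2), GCLC (1) and HMOX1 (1). Their scores ran from 14 to 28 with a median of 17. The median was 18 with 1 ARID (9 peaks), 26 with 2 (10 peaks) and 25 with 3 (7 peaks), and over the whole list it was 17, 20, 22 and 26 for 0 to 3 ARIDs. Over all 39 the median score was 21 and the median width 737 bp, against 19 and 535 bp in the list.

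**Figure D5:**
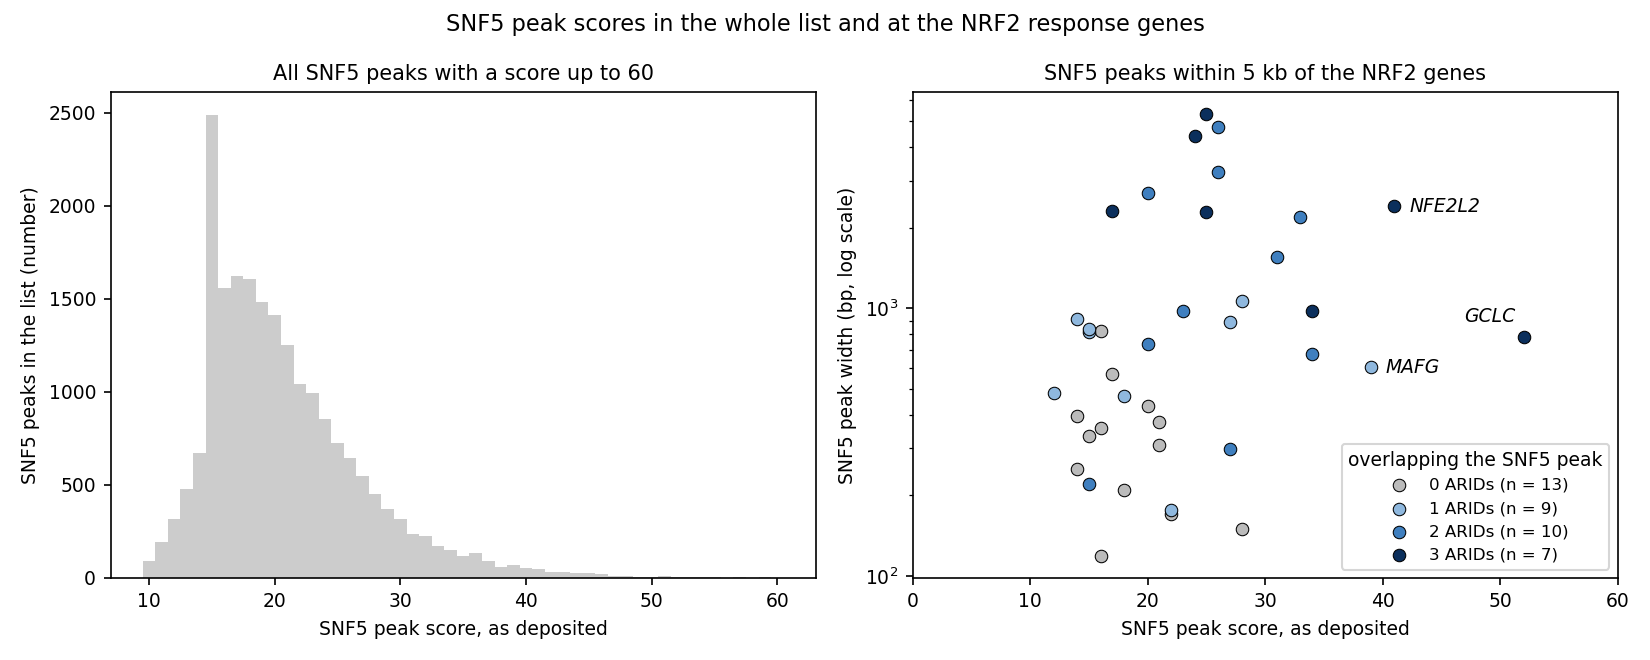
Left, number of SNF5 peaks at each deposited score up to 60 in the whole list, whose highest score was 134. Right, score against width (log scale) of the 39 SNF5 peaks within 5000 bp of the 10 genes, coloured by how many ARIDs overlapped them, where the peaks upstream of GCLC (52), at the NFE2L2 start (41) and at MAFG (39) lie farthest to the right.

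The ARE core occurred within the 300 bp around the midpoint in 5 of 23 ARID1A peaks (21.7%, 9.66 to 41.9%) beside 14.3% of the list, in 4 of 15 ARID1B peaks (26.7%, 10.9 to 52.0%) beside 13.3%, and in 5 of 28 ARID2 peaks (17.9%, 7.88 to 35.6%) beside 13.1%. Each of these intervals contained the share of its list. Searched over the whole peak, as for the sequences above, the core was in 7 of 23 ARID1A peaks (30.4%, 15.6 to 50.9%) beside 13.8% and in 4 of 15 ARID1B peaks (26.7%, 10.9 to 52.0%) beside 9.13%, where both intervals lay above the list. For ARID2 it was in 5 of 28 (17.9%, 7.88 to 35.6%) beside 10.7%, inside the interval. The member peaks were wider than those of the lists, and the part of width in the whole-peak shares was not tested. Peaks of 1 gene are not independent, which the intervals ignore. The ARID1B count includes both ARID1B peaks of SQSTM1, and the GCLC match at -3107 bp was counted in all 3 lists. In promoters from RefSeq (GRCh38.p14, 250 bases before to 50 after the start), 3702 of 27305 (13.6%) held the core. Of the 9 members found among them GCLM and TXNRD1 did, and HMOX1 was the member without an entry. TGANTCA was in 7.76% of those promoters and in 0 of the 9. The matches with AP-1 letters at HMOX1, NQO1, GCLC, SQSTM1 and MAFG all lay outside that span of the starts used here.

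Of 38 further genes of the NRF2 pathway, ARID1A was assigned to 26 (31.1% of coding genes), ARID2 to 21 (27.7%) and ARID1B to 18 (16.0%). All 3 were assigned to 11 (9.41% of coding genes) and none to 7, and SNF5 lay within 5000 bp of 32 (52.6% of coding genes). Their median was 2 peaks, against 7 for the 10 genes above. Among those with all 3 ARIDs, the most peaks were at UGDH, which makes UDP-glucuronic acid (7 ARID1A, 1 ARID1B and 5 ARID2), and at the conjugate exporter ABCC3 (5, 2 and 3). MAFK, another small MAF protein, had 3, 2 and 3. The ferritin heavy chain gene FTH1 had 3, 1 and 3, and IDH1, which supplies NADPH, had 1, 1 and 5. OSGIN1 had 3, 2 and 2, the exporter ABCC2 had 2, 1 and 3, and CUL3, the ligase scaffold that works with KEAP1, had 2, 1 and 2.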

How the data were processed

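Chromatin immunoprecipitated with antibodies to ARID1A, ARID1B, ARID2 and SNF5 was sequenced in 9 libraries, grouped by the antibody in their titles. Per the study's methods, the authors aligned reads to hg19 with bowtie2, filtered duplicates, merged both replicates with samtools, called broad peaks with MACS2, joined neighbouring peaks and removed blacklisted regions. For each ARID peak the authors deposited a distance to the nearest start in bp, a Gencode gene with its feature class, a chromatin state, and a label for peaks of single or of multiple ARIDs. How the state was assigned, and whether input served as control, is not given in the sources used here. The deposited SNF5 list also carries a whole-number peak score, used only to rank peaks within that list. The ARID lists hold no score, and the peak lists carry no read counts, so depth is unknown. The input library, RNA-seq and signal tracks were not analysed here.

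The members, pathway list and alternatives were chosen with earlier results of these data known. Named are every member, at most 8 pathway genes with all 3 ARIDs (those with most peaks, ties by name), and other genes given a peak within 5000 bp of a member. Peaks overlapped when they shared at least 1 bp. The files count peak starts from 0, and printed positions count from 1. Gene bodies and starts came from Gencode 44 lifted to GRCh37 (the hg19 assembly), which may differ from the authors' version. The deposited distance was within 2 bp of the distance from the peak midpoint to a start of that annotation for 32.6 (ARID1A), 33.7 (ARID1B) and 33.1% (ARID2) of the peaks with a named gene. Recomputed overlap differed from the deposited single or multiple label at 0 of the 66 peaks. Scripts (Python 3.11.15, pandas 2.3.3, scipy 1.17.1, pysam 0.24.0, matplotlib 3.10.9) were tested on simulated data. No significance test was run, since each subunit is 1 list. Alternatives were the assignment of peaks to genes, the promoter distance, the overlap rule, joining of neighbouring peaks, the motif window and the distance to SNF5.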

Additional observations from a re-analysis of the deposited data

How the results depend on the processing

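Of 63 alternatives to 24 results, 43 left the value within its spread or within 1.5 times the count, 20 moved it and 0 reversed it. All 24 results are counts or shares without a direction, so none of them could have been reversed. Of the alternatives, 4 were chosen after seeing the data. Joining peaks at most 1000 bp apart left 15 ARID1A peaks, and counting peaks within 5000 bp of the body gave 23 for ARID1B. Counting distances of at most 5000 bp as promoter gave 91.3% for ARID1A, 93.3% for ARID1B and 100% for ARID2. Overlap with another ARID fell to 21.7, 6.67 and 21.4% for ARID1A, ARID1B and ARID2 under a reciprocal overlap of 50%. It was 93.3% for ARID1B and 89.3% for ARID2 with a gap of at most 1000 bp, and 86.7% for ARID1B with midpoints at most 500 bp apart. Overlap with SNF5 was 8.7, 0.0 and 3.57% under the reciprocal rule. It was 52.2, 46.7 and 42.9% by midpoints, and 95.7% for ARID1A and 92.9% for ARID2 with the gap. With the gap, 7 regions held all 3 ARIDs in place of 4. Shares over all peaks are not given under these rules, so the shifts are not results about these genes in particular. Over the lists the median width was 535 bp for SNF5 and 218, 164 and 189 bp for ARID1A, ARID1B and ARID2. The cause of these shifts was not tested beyond the stricter or looser rule itself. No paired analysis was possible because the replicates were merged before peaks were called, which also leaves no replicate to leave out. The unknown depth and the peak caller's threshold limit every statement on a missing peak.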

Other observations

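Where peaks of different ARIDs overlapped at the 10 genes, the deposited chromatin state was the same in 9 of 24 pairs (37.5%), beside 5067 of 10956 pairs (46.2%) over the lists. At the upstream GCLC site the ARID1A and ARID2 peaks were listed as active promoter and the ARID1B peak inside them as strong enhancer. At HMOX1 the ARID1A peak at -8903 bp was listed as active promoter, although its deposited class is distal, and the ARID1A peak at 24 bp, in the promoter class, was listed as strong enhancer. Over the whole ARID1A list 49.7% of distal peaks were listed as active promoter, beside 67.2% of promoter peaks. Since it is not known how the states were assigned, the state of a single peak is given here as a deposited label only.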
